A study of Homo sapiens with 4 samples.

Results

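The genes described here encode the MHC class I molecules and the parts of the machinery that supplies them with peptides. The 9 genes HLA-B, HLA-C, HLA-E, HLA-F, HLA-G, B2M, TAP1, PSMB8 and NLRC5 were chosen by name, by a rule that uses no measured value but with earlier results of these data known, and are 9 of the 62218 genes with a counted transcript on the primary chromosomes. They hold 94 of the 242542 transcripts that could be matched to a gene symbol. Nanopore cDNA libraries were made from total RNA of the wild-type human embryonic stem cell (hESC) line H1, with 2 libraries of naïve cells grown in FINE medium and 2 libraries of primed cells grown in mTeSR. Both states therefore come from 1 genotype, and the comparison asks how the 2 pluripotent states differ. The values are counts of alignments over whole transcript spans, introns included and without regard to strand, and the level of a gene is the count of its transcript with the largest mean. Levels are given as CPM, counts per 1000000 gene-level counts after TMM scaling, which sets effective library sizes on the assumption that most genes do not differ. Gene-level totals were 29618037 and 30978794 (naïve) and 23542380 and 24673428 (primed), and a count of 0 allows up to 0.127 CPM (3 counts, before TMM scaling) in the shallowest library, for counting error only.

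An MHC class I molecule is a heavy chain, encoded by an HLA gene, bound to the light chain β2-microglobulin, the product of B2M, and to a short peptide. HLA-B and HLA-C are classical heavy chains that show peptides to cytotoxic T cells, whereas HLA-E, HLA-F and HLA-G are non-classical chains that are read mainly by receptors of natural killer cells, and HLA-G is best known from the invading trophoblast of the placenta. Peptides are cut by the proteasome, in which PSMB8 is a catalytic subunit of the interferon-inducible form, and TAP1 forms, with TAP2, the pump that carries them into the endoplasmic reticulum. NLRC5 is the transactivator that assembles on the promoters of class I genes, as CIITA does on those of class II genes. Embryonic stem cells are known for low class I levels compared with differentiated cells.

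Promoters of class I genes are known to hold an enhancer bound by NF-κB, an interferon-stimulated response element, and a module whose boxes are bound by RFX, CREB or ATF1, and NF-Y. RefSeq windows (GRCh38.p14) of the 250 bases before a gene start were matched for 7 of the 9 genes, with 11 windows in all, and stretches of 6 of these genes are shown because the genes share elements and yet differ in how their counts changed. The stretches are written 5′ to 3′ on the strand of the gene. Each is the longest run of its window that is clear of exons of protein-coding transcripts. Capitals mark matches, on either strand, to 4 motifs: GAAA followed after 2 bases by a further GAAA (interferon-stimulated response element), TGACG (part of the cyclic AMP response element), CCAAT (the box of NF-Y), and GGGA followed after 4 bases by CC (NF-κB). Matches can overlap each other, as in the palindromic NF-κB match of HLA-B, which is found on both strands. HLA-G and PSMB8 had further windows, not shown, in which none of the 4 motifs was matched.
HLA-B, minus strand, chr6:31357294-31357429, ending 114 bases before the gene start: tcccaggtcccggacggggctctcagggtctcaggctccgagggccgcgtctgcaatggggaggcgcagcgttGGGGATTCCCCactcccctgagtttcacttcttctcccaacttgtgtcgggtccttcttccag
HLA-C, minus strand, chr6:31272093-31272342: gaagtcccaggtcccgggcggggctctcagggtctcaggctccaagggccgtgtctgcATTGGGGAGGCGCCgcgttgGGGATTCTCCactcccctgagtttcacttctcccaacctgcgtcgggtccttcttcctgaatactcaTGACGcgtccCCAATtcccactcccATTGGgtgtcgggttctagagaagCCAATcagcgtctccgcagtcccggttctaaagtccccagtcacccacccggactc
HLA-F, plus strand, chr6:29723184-29723305, ending 128 bases before the gene start: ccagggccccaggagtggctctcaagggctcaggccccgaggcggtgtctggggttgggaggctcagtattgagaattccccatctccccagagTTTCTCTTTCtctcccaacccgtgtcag
HLA-G, plus strand, chr6:29827575-29827824: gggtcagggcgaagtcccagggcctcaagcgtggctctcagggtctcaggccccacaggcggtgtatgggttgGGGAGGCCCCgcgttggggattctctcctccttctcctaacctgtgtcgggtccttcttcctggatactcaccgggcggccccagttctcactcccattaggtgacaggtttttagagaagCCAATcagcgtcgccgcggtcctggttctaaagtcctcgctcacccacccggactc
B2M, plus strand, chr15:44711324-44711512, ending 4 bases before the gene start: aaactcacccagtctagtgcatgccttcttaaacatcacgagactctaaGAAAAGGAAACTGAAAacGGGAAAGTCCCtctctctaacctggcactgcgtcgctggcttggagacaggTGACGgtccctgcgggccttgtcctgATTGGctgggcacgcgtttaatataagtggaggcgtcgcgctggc
PSMB8, minus strand, chr6:32844680-32844835: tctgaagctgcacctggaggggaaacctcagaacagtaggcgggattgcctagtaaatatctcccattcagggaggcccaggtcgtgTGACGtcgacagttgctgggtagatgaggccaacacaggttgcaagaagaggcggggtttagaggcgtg

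Over the whole 250-base windows, the interferon-stimulated response element was matched in B2M, HLA-F and TAP1, TGACG in B2M, HLA-B, HLA-C and PSMB8, the CCAAT box in B2M, HLA-B, HLA-C, HLA-F, HLA-G and TAP1, and the NF-κB motif in B2M, HLA-B, HLA-C, HLA-G and TAP1. Counted by window, 3, 4, 6 and 5 of the 11 windows of the members held the motifs, in that order. Of all 35116 windows, 3.02% held the first motif, 21.2% the second, 32.0% the third and 22.6% the fourth. A match is a run of letters and was not tested as a binding site.

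Taken as a group, the 9 genes changed about as often as other genes did. All 9 passed the count filter, and 7 fell below an adjusted p of 0.05 (quasi-likelihood test of edgeR, Benjamini-Hochberg adjustment over 27632 genes), against 70.0% of all genes tested. HLA-B and PSMB8 were higher in the primed cells (37.4% of all genes were), and HLA-C, HLA-E, HLA-F, HLA-G and TAP1 were lower (32.6% of all genes were). The median log2 fold change of the 9 genes was -0.35, and that of all genes tested was 0.08. With a log2 fold change beyond 1 asked as well, HLA-B, HLA-E and PSMB8 remained, against 47.1% of all genes tested.

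Several of these calls turned on the scaling. Scaling by library size alone moved the median of all genes to 0.72. Under that scaling HLA-B, B2M, PSMB8 and NLRC5 were higher in the primed cells (56.2% of all genes were), and HLA-E alone of the 9 was lower (16.3% of all genes were). HLA-B and PSMB8 were higher and HLA-E was lower under every one of 13 alternatives, of which those on the choice of transcript left the transcript of some genes, HLA-E among them, as it was. Without primed replicate 2 the called genes were HLA-B, HLA-E and PSMB8, so the TMM calls of HLA-C, HLA-F, HLA-G and TAP1 were lost without that library.

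**Figure D1:**
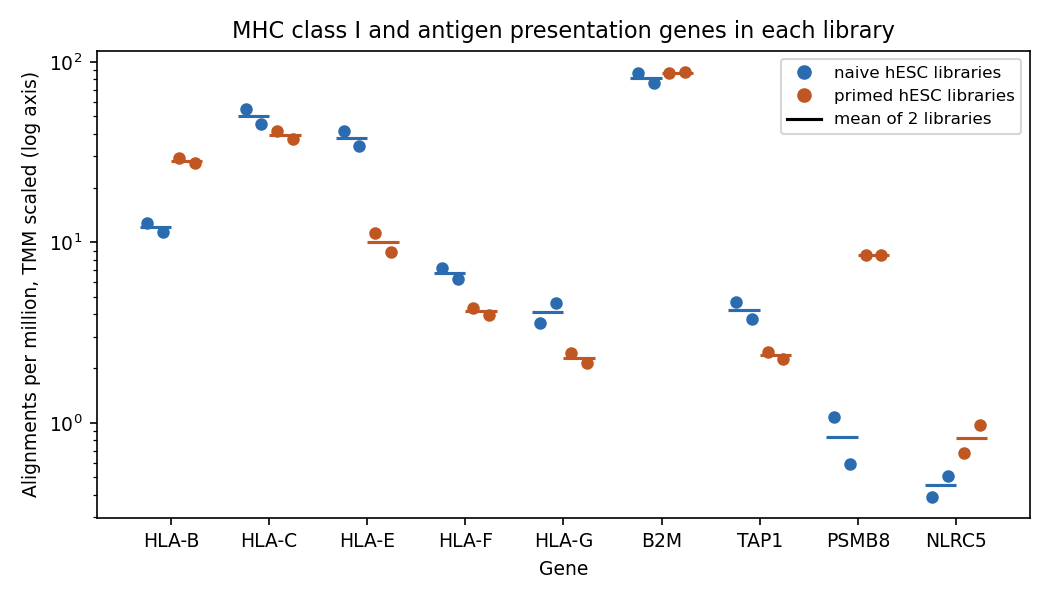
Level of each of the 9 genes in each library, in TMM-scaled CPM on a log axis; points are libraries and bars the mean of the 2 libraries of a state. The primed libraries lie above the naïve ones for HLA-B, PSMB8 and NLRC5 and below them for HLA-C, HLA-E, HLA-F, HLA-G and TAP1, and the ranges of B2M overlap.

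HLA-B (chr6:31353875-31357179) had 296 and 293 counts in naïve cells against 860 and 845 in primed cells. Both primed libraries were well above both naïve libraries, at 28.4 CPM ± 1.17 (SD, n = 2) against 12.1 CPM ± 0.952 (SD, n = 2). The log2 fold change was 1.22 (SE 0.16, adjusted p = 5.35e-09, edgeR), a 2.34-fold rise, and with library size scaling it was 1.86 (adjusted p = 7.32e-10, edgeR). The span of HLA-B overlaps an unnamed pseudogene on the opposite strand, ENSG00000271581, whose counts of 189, 176, 700 and 619 moved the same way, and reads of the pair cannot be told apart without strand. Over HLA-B-253 (chr6:31353872-31354806), a transcript at the 3′ end whose span overlaps no other gene and which was chosen after the counts were seen, naïve cells had 290 and 289 counts and primed cells 838 and 824 (log2 fold change 1.21, SE 0.16, adjusted p = 6.96e-09, edgeR). Most of these alignments also reach the 5′ part of HLA-B, and those that cover its 3′ part alone overlapped between the states, as given further on.

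HLA-C, the other classical chain among the members (chr6:31268749-31272092), gave 1274 and 1149 counts in naïve cells, compared with 1215 and 1148 in primed cells. These raw counts overlapped between the states, whereas the TMM-scaled levels did not, at 50.1 CPM ± 7.20 (SD, n = 2) in naïve and 39.3 CPM ± 2.71 (SD, n = 2) in primed cells. The log2 fold change was -0.35 (SE 0.15, adjusted p = 0.0349, edgeR) with TMM and 0.29 (adjusted p = 0.0694, edgeR) with library size, so its sign turned with the scaling. The TMM call was also lost without naïve replicate 1 (adjusted p = 0.219, edgeR) or without primed replicate 1 (adjusted p = 0.248, edgeR).

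HLA-E (chr6:30489509-30494194), whose product presents peptides cut from the leader sequences of other class I chains, fell. Naïve cells gave 961 and 870 counts and primed cells 331 and 271, which is 37.9 CPM ± 5.34 (SD, n = 2) against 10.03 CPM ± 1.70 (SD, n = 2). Both primed libraries were far below both naïve ones. The log2 fold change was -1.92 (SE 0.16, adjusted p = 9.12e-14, edgeR), a 3.77-fold lower level in primed cells, and it was -1.27 (adjusted p = 5.74e-07, edgeR) with library size scaling.

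HLA-F gave 166 and 160 counts (naïve) and 127 and 122 counts (primed) over the transcript taken, HLA-F-223 (chr6:29725054-29738528). Its log2 fold change was -0.70 (SE 0.20, adjusted p = 0.0023, edgeR) with TMM and -0.06 (adjusted p = 0.802, edgeR) with library size. Most of that span is shared with HLA-F-AS1, a long non-coding RNA gene on the opposite strand with 101, 92, 135 and 136 counts, and it also holds the pseudogene RPL23AP1 with 21, 13, 44 and 39 counts. Over HLA-F-220 (chr6:29723464-29726526), which ends before both of these genes begin and overlaps only the unnamed pseudogene ENSG00000225864 (69, 54, 45 and 34 counts), naïve cells had 136 and 118 counts and primed cells only 57 and 51. There the fall was larger and passed the threshold under both scalings, with a log2 fold change of -1.54 (SE 0.24, adjusted p = 3.92e-07, edgeR) with TMM and -0.90 (adjusted p = 0.00221, edgeR) with library size. This transcript was chosen after the counts were seen.

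HLA-G (transcript taken chr6:29827845-29831125) had 83 and 118 naïve counts against 72 and 66 primed ones. Its level was 4.11 CPM ± 0.726 (SD, n = 2) in naïve and 2.30 CPM ± 0.207 (SD, n = 2) in primed cells, with no overlap between the states and the larger spread in the naïve libraries. Its log2 fold change was -0.84 (SE 0.24, adjusted p = 0.00217, edgeR) with TMM and -0.21 (adjusted p = 0.459, edgeR) with library size. The pseudogene HCG4P8 on the opposite strand covers the start of the gene and had 31, 44, 41 and 36 counts. Markers of trophoblast moved in the same direction as a sum: their summed level was 1700 and 2039 CPM in naïve cells against 11.4 and 10.9 CPM in primed cells. Of the 11 listed genes, 9 were lower in primed cells and 1 was higher (edgeR, TMM), against 32.6% of all genes lower. With library size 9 were lower and 2 higher, against 16.3% of all genes lower. The summed level in the naïve cells came mostly from CGA, the α subunit of glycoprotein hormones, at 1705 CPM ± 222 (SD, n = 2). Markers of extravillous trophoblast, the lineage that HLA-G marks, summed to 23.9 and 23.1 CPM (naïve) and 20.2 and 18.9 CPM (primed), led by ITGA1 in both states. Of the 5 tested, 3 were lower and 0 higher with TMM, and 2 were lower and 2 higher with library size (edgeR). The part of such cells in the HLA-G counts was not tested. In bulk libraries, fewer cells of a type and less RNA per cell cannot be told apart.

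B2M (transcript taken chr15:44711509-44718851), the light chain shared by all class I molecules, had the highest counts of the 9 genes, 2010 and 1949 in naïve cells, then 2545 and 2699 in primed cells. Scaled by TMM, the level was 81.7 CPM ± 7.59 (SD, n = 2) in naïve and 87.2 CPM ± 1.11 (SD, n = 2) in primed cells, and the ranges overlapped. The log2 fold change was 0.09 (95% interval -0.20 to 0.38, adjusted p = 0.57, edgeR) with TMM. It was 0.73 (SE 0.13, adjusted p = 3.65e-05, edgeR) with library size, which is close to the median of all genes under that scaling.

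PSMB8, the inducible proteasome subunit, showed the largest change of the 9 genes. Only 25 and 15 alignments were counted in naïve cells, against 252 and 260 in primed cells, which is 0.835 CPM ± 0.350 (SD, n = 2) against 8.51 CPM ± 0.0574 (SD, n = 2). The primed libraries were close to each other and far above both naïve ones. On the log2 scale the rise was 3.36 (SE 0.26, adjusted p = 5.84e-15, edgeR), a 10.3-fold higher level, or 15.96-fold with library size scaling (adjusted p = 1.81e-11, edgeR). The transcript taken, PSMB8-201 (chr6:32840717-32844679), overlaps PSMB8-AS1 and the long isoform PSMB9-208 at its start. Over PSMB8-202 (chr6:32840717-32844047), which overlaps no other gene, the counts were 25, 14, 251 and 259, so nearly all of the alignments lay there.

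TAP1 (chr6:32845209-32853704), the transporter gene, moved the opposite way under TMM. Counts of 108 and 96 (naïve) stood against 73 and 69 (primed), which is 4.22 CPM ± 0.649 (SD, n = 2) against 2.36 CPM ± 0.162 (SD, n = 2), with no overlap. Its span has its 3′ end within PSMB8-AS1 (chr6:32844131-32846492, with 102, 80, 171 and 167 counts) and lies wholly inside the long isoform PSMB9-208, both on the opposite strand. Counts of TAP1 taken without strand, and ratios made from them, can therefore include reads of both genes. On the log2 scale the change was -0.83 (SE 0.24, adjusted p = 0.00213, edgeR) with TMM and -0.19 (adjusted p = 0.473, edgeR) with library size. The share of PSMB8 and TAP1 counts can be set against each other within a library, where scaling plays no part. For every 100 alignments to PSMB8 naïve libraries had 432 and 640 to TAP1, whereas primed libraries had 29.0 and 26.5.

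NLRC5 (transcript taken chr16:56989498-57083524), the class I transactivator, was the least abundant of the 9 genes, with 9 and 13 naïve against 20 and 30 primed counts. Its level was 0.449 CPM ± 0.0844 (SD, n = 2) in naïve and 0.828 CPM ± 0.211 (SD, n = 2) in primed cells, and the states did not overlap. Its log2 fold change was 0.87 (95% interval 0.02 to 1.72, adjusted p = 0.0618, edgeR) with TMM, which missed the threshold, and the level was 2.83-fold higher (adjusted p = 0.00262, edgeR) with library size. At counts this low, the depth leaves a wide interval around the change.

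**Figure D2:**
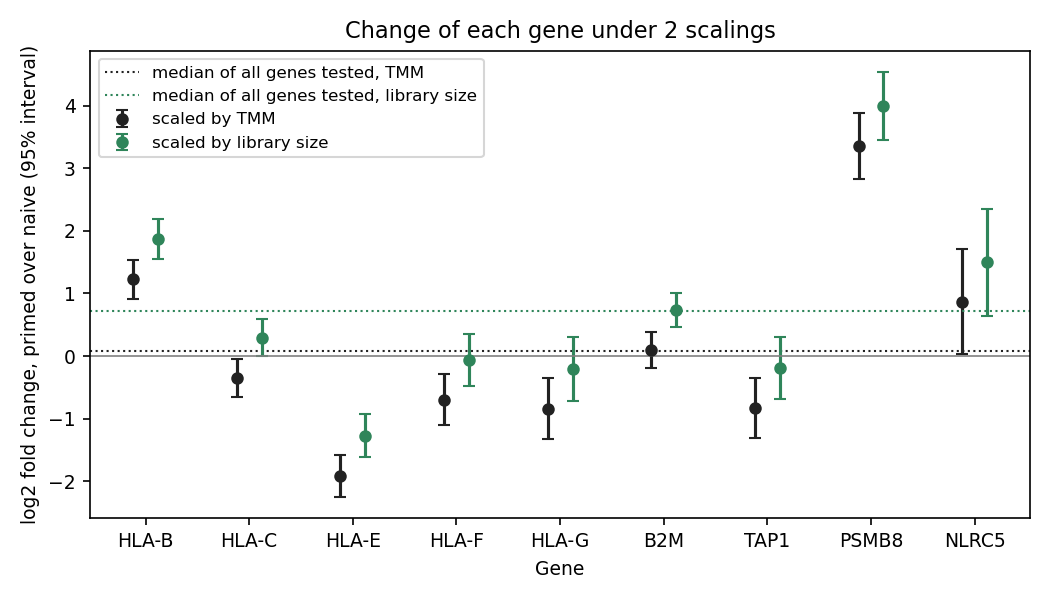
Log2 fold change of primed over naïve hESCs for each of the 9 genes with its 95% interval from edgeR, scaled by TMM (black) or by library size (green); dotted lines are the medians of all genes tested, 0.08 and 0.72. The intervals of HLA-B and PSMB8 lie above 0 and that of HLA-E below 0 under both scalings, and HLA-C changes sign.

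Set on a scale per length, as CPM per kilobase of the exons of the Ensembl canonical transcript, the order of the genes also differed between the states. In the naïve cells the order was B2M, HLA-C, HLA-E, HLA-B, HLA-F, HLA-G, TAP1, PSMB8 and NLRC5, from 86.6 ± 8.05 for B2M through 14.9 ± 2.10 for HLA-E and 7.91 ± 0.620 for HLA-B down to 0.0663 ± 0.0124 for NLRC5 (CPM per kilobase, SD, n = 2). In the primed cells it was B2M, HLA-C, HLA-B, PSMB8, HLA-E, HLA-F, HLA-G, TAP1 and NLRC5, with 18.5 ± 0.762 for HLA-B, 7.57 ± 0.0510 for PSMB8 and 3.94 ± 0.667 for HLA-E. PSMB8 thus stood in the eighth place in naïve cells and in the fourth in primed cells. In neither state did the ranges of 2 neighbours in the order overlap between libraries. By CPM without regard to length, the level of PSMB8 among all genes tested was at percentile 29.1 in the naïve and 66.0 in the primed cells, and that of HLA-E at percentile 88.1 and 69.4. These levels include alignments to introns and, for genes with overlaps, to their neighbours.

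Within a library, the share of each heavy chain among the alignments to the 5 HLA genes does not depend on any scaling. HLA-C held 45.8% (95% Wilson interval 43.98% to 47.7%) and 44.4% (42.5% to 46.3%) of them in naïve cells, with 46.6% (44.7% to 48.6%) and 46.8% (44.9% to 48.8%) in primed cells, so its share was nearly the same in all 4. HLA-E and HLA-B exchanged places around it. HLA-E held 34.6% (32.8% to 36.4%) and 33.6% (31.8% to 35.4%) in naïve cells but 12.7% (11.5% to 14.0%) and 11.1% (9.87% to 12.4%) in primed cells. HLA-B held 10.6% (9.55% to 11.8%) and 11.3% (10.1% to 12.6%) in naïve cells but 33.0% (31.2% to 34.8%) and 34.5% (32.6% to 36.4%) in primed cells. HLA-F went from 5.97% and 6.18% to 4.88% and 4.98%, and HLA-G from 2.99% and 4.56% to 2.76% and 2.69%. The HLA-F share is that of HLA-F-223, which includes alignments over HLA-F-AS1, whereas HLA-F-220 had 136, 118, 57 and 51 counts. The intervals cover counting error only, and with 2 libraries per state a two-sided exact permutation test of these shares cannot give a p below 0.333.

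**Figure D3:**
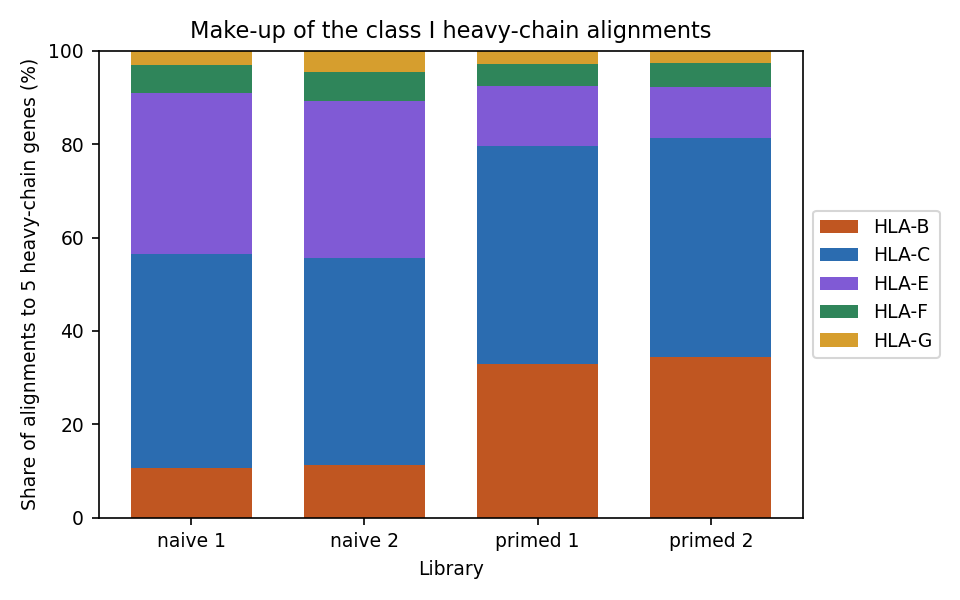
Share of each gene among the alignments to HLA-B, HLA-C, HLA-E, HLA-F and HLA-G in each library, in percent. The share of HLA-C is between 44.4% and 46.8% in every library, whereas HLA-E is the second in the naïve and HLA-B the second in the primed libraries.

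These genes are close relatives, and a long read with errors can align to more than 1 of them. Over the coding sequences of the Ensembl canonical transcripts, the 10 pairs of HLA members were between 84.5% (HLA-E and HLA-F) and 92.6% (HLA-B and HLA-C) identical at aligned bases. The counting added every place to which a read aligned, so counts of these genes are uncertain by the reads that they share. Their part in the counts was not tested, since the counts do not say which alignments belong to 1 read.

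Isoform usage of the 9 genes was examined next, as the isoform fraction (IF), the share of an isoform in the length-scaled counts of its gene, and its change between states (dIF). Of 76 isoforms with enough counts, 0 were called at an adjusted p under 0.05 with a dIF beyond 0.1 (edgeR's diffSpliceDGE), against 0.556% of the isoforms of all genes. Without the condition on dIF, 2 passed, against 4.27% of all isoforms, and 4 had an unadjusted p under 0.05. Both of the 2 belonged to HLA-F. The fraction of HLA-F-223, the transcript that runs into HLA-F-AS1, was 10.2% and 11.4% in naïve cells and rose to 17.4% and 18.8% in primed cells (adjusted p = 0.0157, edgeR). HLA-F-230, which lies within the first part of the gene, went from 8.84% and 9.07% down to 4.73% and 4.65% (adjusted p = 0.0186, edgeR). Of the 94 transcripts of the 9 genes, all of which had counts, 41 shared their counts with another transcript of the gene in every library, so such transcripts cannot be told apart.

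The counts of nested transcripts give a finer view, because the count of an outer span less that of a span inside it is the number of alignments that touch the outer span and miss the inner one. Of the alignments to HLA-F-216, the canonical transcript, 11.7% (95% Wilson interval 7.52% to 17.7%) and 9.92% (5.89% to 16.2%) missed HLA-F-220 in naïve cells. In primed cells 41.2% (32.0% to 51.2%) and 43.96% (34.2% to 54.2%) did so. These alignments, 18, 13, 40 and 40 in number, lie over the 3′ end of HLA-F, where HLA-F-AS1 and RPL23AP1 also lie, or over the few bases before HLA-F-220. They were more in both primed libraries, whereas the counts over HLA-F-220 were fewer.

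A like pattern was seen around TAP1. The isoform PSMB9-208 encloses all of TAP1 on the opposite strand, so every alignment to TAP1 is also counted for it. Outside TAP1 it had 10 and 9 naïve alignments but 134 and 125 primed ones, which is 8.47% (4.67% to 14.9%) and 8.57% (4.57% to 15.5%) of its alignments against 64.7% (58.0% to 70.9%) and 64.4% (57.5% to 70.8%). This stretch includes the start of PSMB8 and part of PSMB8-AS1, which had 102, 80, 171 and 167 counts. Over PSMB9-207, a transcript that overlaps no other gene, PSMB9, the partner of PSMB8 in the inducible proteasome, had 6 and 11 naïve counts against 34 and 27 primed ones (log2 fold change 1.53, SE 0.43, adjusted p = 0.00174, edgeR). PSMB8 and PSMB9 were thus both higher in primed cells in stretches of their own, next to a TAP1 that was not. This did not extend to PSMB10, a further gene of the inducible proteasome. It was called lower in primed cells with TMM and was not called with library size (edgeR).

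**Figure D4:**
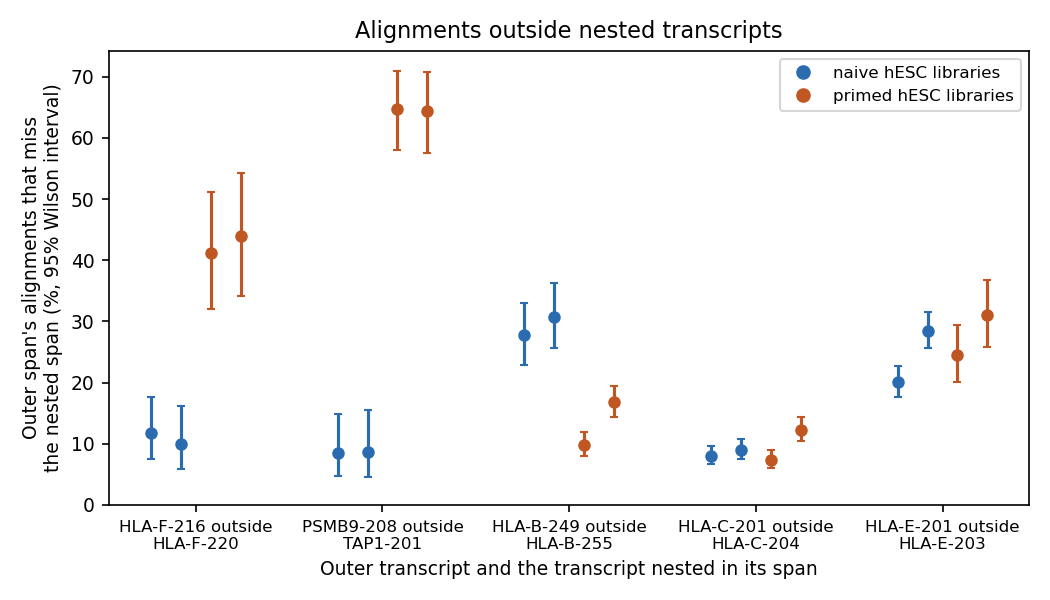
Percent of the alignments to an outer transcript span that miss a transcript nested in it, by library, with 95% Wilson intervals. HLA-F-216 outside HLA-F-220 and PSMB9-208 outside TAP1-201 lie higher in both primed libraries, HLA-B-249 outside HLA-B-255 lies lower, and HLA-C and HLA-E overlap between the states.

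For HLA-B, HLA-C and HLA-E the same arithmetic shows how many alignments cover the 3′ part alone. In HLA-B, 27.7% (22.9% to 33.1%) and 30.7% (25.7% to 36.2%) of alignments missed the 5′ part of the gene, HLA-B-255, in naïve cells, against 9.77% (7.96% to 11.9%) and 16.8% (14.4% to 19.5%) in primed cells. In HLA-C the shares were 8.01%, 8.96%, 7.33% and 12.3%, and in HLA-E 20.1%, 28.5%, 24.5% and 31.0%, and both overlapped between the states. The alignments of HLA-B that cover its 3′ part alone numbered 82, 90, 84 and 142, which is 3.55 and 3.52 CPM (naïve) and 2.85 and 4.63 CPM (primed), and these levels overlapped between the states. The higher level of HLA-B in primed cells thus lay in alignments that reach HLA-B-255, only part of whose span the pseudogene on the opposite strand overlaps. HLA-B-253, which the pseudogene does not overlap, had 290, 289, 838 and 824 counts, against 296, 293, 860 and 845 over the transcript taken. The part of the pseudogene in the counts was not tested. These shares were compared without a test.

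The genes around the 9 members were described by 8 lists, chosen with earlier results of these data known. Of their 75 gene models 58 were tested, of which 26 were higher and 25 lower in primed cells and 7 were not called (edgeR), and the lists differed in direction. With library size scaling 31 were higher and 12 lower. Of all genes tested, 37.4% were higher and 32.6% lower with TMM, and 56.2% and 16.3% with library size, which holds for each list below. Among the genes of peptide loading, which fold and edit class I molecules in the endoplasmic reticulum, 1 of 7 tested was higher and 3 were lower, with a median log2 fold change of 0.15, and with library size 4 were higher and 2 lower. The chaperone gene CALR fell by 1.09 on the log2 scale (SE 0.14, adjusted p = 6.69e-09, edgeR) and CANX, which encodes calnexin, fell by 1.02 (SE 0.15, adjusted p = 5.43e-08, edgeR). TAPBPL, a peptide editor, rose by 0.94 (SE 0.29, adjusted p = 0.00432, edgeR), a call that was lost with DESeq2 (adjusted p = 0.0614) and without naïve replicate 2 (0.68, adjusted p = 0.0849, edgeR). TAP2, the partner of TAP1 in the transporter, had 22, 16, 23 and 32 counts. It was not called with TMM (log2 fold change 0.22, adjusted p = 0.61, edgeR). With library size it was called higher in primed cells (log2 fold change 0.85, adjusted p = 0.0411, edgeR).

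In the other genes of the immunoproteasome, 1 of 4 was higher and 3 were lower, with a median of -0.40, whereas with library size 1 was higher and 1 lower. PSMB9, on the transcript taken by the common rule, had a log2 fold change of 0.54 (adjusted p = 0.0173, edgeR), which missed the threshold with DESeq2 (adjusted p = 0.102), with counts summed over isoforms (0.34, adjusted p = 0.194, edgeR) and without naïve replicate 2 (0.33, adjusted p = 0.254, edgeR), and most of its counts in naïve cells were also those of TAP1, as given above. PSME2, a subunit of the activator cap, fell by 1.14 (SE 0.15, adjusted p = 5.56e-09, edgeR), and PSME1, its partner, had -0.41 with TMM (adjusted p = 0.0118, edgeR) and 0.23 with library size. The 3 catalytic subunits of the constitutive proteasome were all lower with TMM, with log2 fold changes of -0.56 for PSMB5, -0.48 for PSMB6 and -0.57 for PSMB7, and none of the 3 was called with library size, where their sign turned. None of these 3, nor PSME1, passed the threshold without primed replicate 2 (log2 fold changes of -0.33, -0.26 and -0.36 for PSMB5, PSMB6 and PSMB7 and -0.17 for PSME1), and without primed replicate 1 PSMB6 (-0.36) and PSME1 (-0.32) missed it too, as PSMB6 did without naïve replicate 1 (-0.35). PSMB5 is the subunit whose place PSMB8 takes, and it had 3014, 2936, 2558 and 2442 counts.

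Of the 9 genes whose products bind or act at class I and class II promoters, 5 were higher and 4 were lower, with a median of 0.48, and with library size 5 were higher and 2 lower. RFX5, the DNA-binding RFX subunit, rose by 1.87 (SE 0.23, adjusted p = 2.3e-09, edgeR), from 41 and 58 counts to 254 and 192. NFYA, a subunit of NF-Y, fell by 1.17 (SE 0.17, adjusted p = 1.14e-07, edgeR), and ATF1, which binds TGACG, fell by 1.12 (SE 0.17, adjusted p = 2e-07, edgeR). Some partners of the latter genes moved the other way, in that CREB1, which binds the same box as ATF1, rose by 1.07 (adjusted p = 1.44e-07, edgeR), and NFYB, also of NF-Y, by 0.48 (adjusted p = 0.0109, edgeR). NFYC, the remaining subunit of NF-Y, was called lower with TMM, as NFYA was. RFXAP, a further RFX subunit, rose with RFX5, from 4 and 11 to 67 and 58 counts (log2 fold change 2.74, adjusted p = 7.16e-08, edgeR). RFXANK, the remaining RFX subunit, did not rise with them and was among the 4 genes called lower with TMM. Neither NFYC nor RFXANK was called with library size scaling. Among the 11 tested genes of interferon-γ and NF-κB signalling, 1 was higher and 7 were lower, with a median of -0.75. With library size 2 were higher and 3 lower, with a median of -0.12. The share of all genes that were lower was 32.6% with TMM and 16.3% with library size. The interferon-γ receptor genes IFNGR1 and IFNGR2 fell by 1.82 and 1.91 (adjusted p = 2.41e-12 and 1.41e-14, edgeR), and IRF1, which encodes a factor that binds the interferon-stimulated response element, fell by 1.89 (SE 0.25, adjusted p = 1.1e-08, edgeR). IFNG itself had 0 counts in all 4 libraries.

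**Figure D5:**
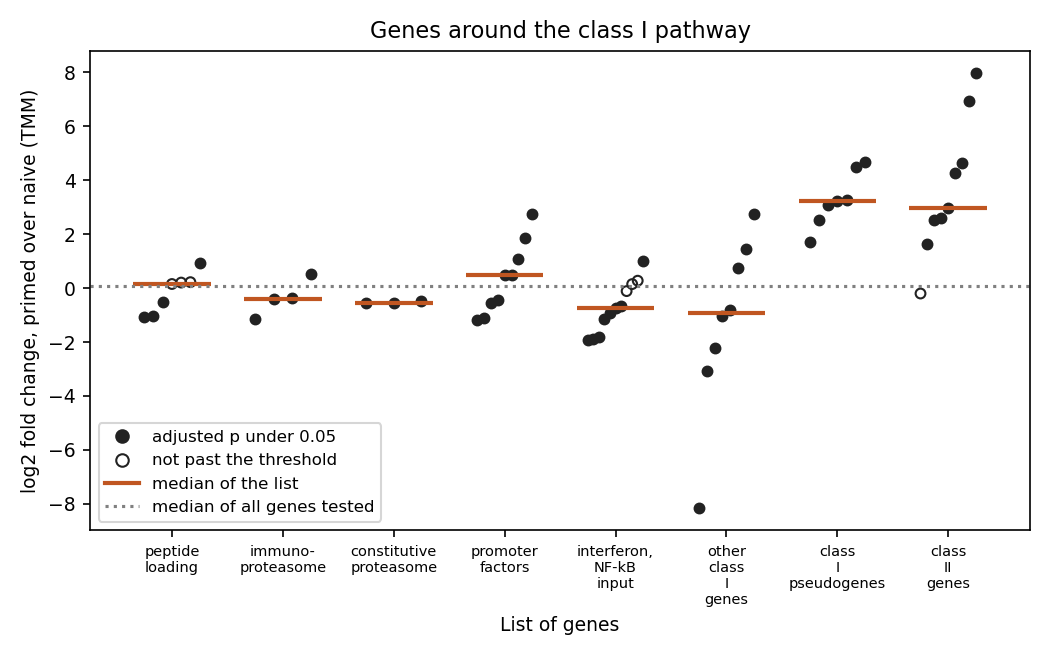
Log2 fold change of primed over naïve hESCs (edgeR, TMM) for each tested gene of 8 lists around the class I pathway; filled points have an adjusted p under 0.05, bars are list medians and the dotted line is the median of all genes tested, 0.08. The medians of the class I pseudogenes and the class II genes, 3.23 and 2.99, lie above those of the other lists; the extreme fitted values of ULBP2 and HLA-DRA, each at 0 in both libraries of a state, depend on the prior count.

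Markers of other cells also differed between the states. Haematopoietic markers summed to 5.93 and 6.42 CPM (naïve) and 4.07 and 3.94 CPM (primed), mostly from CD68, and PTPRC, the common leukocyte gene, had 0, 0, 1 and 1 counts. Fibroblast markers summed to 4.94 and 4.23 CPM (naïve) and 60.9 and 63.3 CPM (primed), with 948 and 1174 counts of COL1A1 in the primed ones. Of the 5 fibroblast markers tested, 4 were higher in primed cells, 0 were lower and 1 was not called (edgeR, TMM). Of all genes tested, 37.4% were higher. DCN, a further fibroblast marker, had at most 1 count in any library. Amnion markers summed to 24.6 and 23.0 CPM (naïve) and 7.13 and 6.03 CPM (primed), and endothelial markers to 5.54 and 5.72 CPM (naïve) and 3.12 and 3.32 CPM (primed), led in the naïve cells by IGFBP3 and CDH5. The state labels were checked on pluripotency markers, where 8 of 8 naïve markers were lower and 7 of 7 primed markers higher in primed cells, and 5 of 7 shared markers were higher and 1 lower (edgeR, TMM). Of all genes tested, 37.4% were higher and 32.6% lower with TMM. With library size 7 of 8 naïve markers were lower, 7 of 7 primed markers higher, and 6 of 7 shared markers higher and 1 lower. KLF17, a naïve marker, was still at 71.8 CPM in the primed cells. The most abundant marker of these 3 lists in the naïve cells was DPPA5 at 662 CPM, CD24 at 140.03 CPM and POU5F1 at 296 CPM, in that order. The part of other cells in the class I values was not tested.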

How the data were processed

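The authors aligned Nanopore cDNA reads with minimap2 to GRCh38 and deposited raw counts for each library, which featureCounts 2.0.0 assigned to the transcripts of Ensembl release 105. Per the file headers, whole transcript spans were counted without regard to strand, an alignment counted for every transcript that it overlapped, and every place of a multi-mapped read counted. Library totals were 153647482, 161548901, 129276054 and 132927036 counts.

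Transcripts were named with GENCODE release 44, in which 242542 of 244825 were found. A gene was tested where 2 or more libraries had 10 or more counts, with edgeR 4.0.16 (R 4.3.3), by a quasi-likelihood fit with TMM and Benjamini-Hochberg adjustment at 0.05, two-sided. Isoform usage was tested with diffSpliceDGE and called at a dIF beyond 0.1 in addition. Wilson intervals were made with scipy 1.17.1 and coding sequences aligned with Biopython 1.88. The labels do not say that replicates are separate cultures, so p-values measure only the spread between these libraries, which may be technical. Replicates differed by more than sampling noise, since chi-square over its degrees of freedom was 8.74 between naïve and 5.53 between primed replicates.

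The members and lists were chosen with earlier results of these data known, and a gene of the lists is left out and not reported here. Beside the 9 members, the rule names per list up to 3 called genes with the largest change, a mean of at least 50 counts and no overlap between states, genes that hold at least 20% of a member's counts in an overlapping span, and the top marker of each list. Genes such as TAP2, PSMB10, CREB1, NFYB, NFYC, RFXAP, RFXANK, IFNG, PTPRC and DCN were named after their values were seen. So were the transcripts HLA-B-253, HLA-F-220, PSMB8-202 and PSMB9-207. Alternatives were DESeq2 1.42.0, library size scaling, other count filters, summed or canonical transcripts, a fold change threshold, a replicate block and leaving out each library. The fits were also run on simulated data in which few genes were changed, as a check of the code only. That run does not bear on the choice of scaling here.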

Additional observations from a re-analysis of the deposited data

How the results depend on the processing

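HLA-B, HLA-E and PSMB8 kept their direction and their adjusted p under 0.05 in all 13 alternatives (edgeR or DESeq2), with log2 fold changes between 1.09 and 1.86 for HLA-B, between -2.11 and -1.27 for HLA-E and between 2.91 and 4.03 for PSMB8. With library size in place of TMM, 4 members were called higher and 1 lower, and 12 genes of the lists lower. The sign then turned for HLA-C (0.29), PSME1 (0.23), PSMB5 (0.079), PSMB6 (0.17) and PSMB7 (0.068). With HLA-B, HLA-F, PSMB8 and PSMB9 taken by transcripts that overlap fewer or no other genes, and library size, an alternative chosen after seeing the data that left the transcripts of the other genes as they were, 4 members were higher and 2 lower, 12 list genes were lower, and those 5 signs turned with the same rounded values. With a log2 fold change over 1 asked as well, 3 members were called, 1 of them lower, and 13 list genes were lower. Without a dIF threshold, 2 isoforms of the members were called.

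With 1 library left out, the lone library of a state is assumed to vary like the other state's. Members called then ranged from 3 to 7, those lower from 1 to 5, list genes called from 27 to 47, those higher from 15 to 23 and those lower from 12 to 24, with the lowest counts without primed replicate 2. B2M had log2 fold changes from -0.057 (without naïve replicate 2) to 0.27.

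The replicate numbers were not shown to pair the libraries (correlation of deviations 0.04), and with a replicate block 7 members, 51 list genes and 0 isoforms were called, as without it. Among the 23 named genes of the lists, 15 values beside the turned signs missed the threshold, all of TAPBPL, PSMB9, PSME1, PSMB5, PSMB6, PSMB7 and MICA. HLA-C missed the threshold in 6 alternatives beside those where its sign turned. Low counts limit NLRC5, and the prior count sets fitted values of genes at 0 in a state. The protein sequences of the HLA members were not compared here.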

Other observations

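Class II genes, which present peptides to helper T cells and are known mainly from professional antigen-presenting cells, were higher in the primed cells. Of 9 tested, 8 were higher and 0 lower, and with library size scaling 9 were higher, with a median log2 fold change of 2.99 under TMM, also with HLA-DRA at its bound (edgeR, against 37.4% of all genes higher). CD74, the invariant chain, had 22 and 19 naïve counts against 651 and 631 primed ones (log2 fold change 4.65, SE 0.23, adjusted p = 5.51e-22, edgeR). HLA-DOA rose from 0 and 2 to 164 and 170 counts, and HLA-DQB1 from 13 and 8 to 219 and 282. HLA-DRA had 0 and 0 counts in naïve cells but 37 and 33 in primed cells, at least 9.42-fold higher when a count of 0 is set to 3 counts per library. CIITA, their transactivator, had 73, 92, 131 and 154 counts (log2 fold change 0.48, adjusted p = 0.049, edgeR).

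All 7 class I pseudogene models that were tested were higher in primed cells under both scalings, with a median log2 fold change of 3.23 under TMM. Of all genes tested, 37.4% were higher with TMM and 56.2% with library size. HLA-H rose from 7 and 9 to 90 and 98 counts, and the long non-coding model of HLA-L from 30 and 52 to 312 and 266. Reads of the expressed HLA genes may align to these copies, and their part was not tested.

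Of the other class I-like genes, 3 were higher and 5 lower, or 3 and 4 with library size scaling, with a median of -0.92 under TMM, also with ULBP2 at its bound. The share of all genes that were lower was 32.6% with TMM and 16.3% with library size. The lower ones included stress ligands of the natural killer receptor NKG2D: MICB had 814 and 896 naïve counts against 239 and 212 primed ones (log2 fold change -2.23, SE 0.16, adjusted p = 6.05e-16, edgeR), and ULBP2 had 30, 34, 0 and 0 counts, at least 13.2-fold lower in primed cells. MICA, a relative of MICB, had 248, 260, 193 and 168 counts, with a log2 fold change of -0.80 with TMM (adjusted p = 0.000164, edgeR) and -0.16 with library size (adjusted p = 0.436, edgeR), and -0.51 without primed replicate 2 (adjusted p = 0.0507, edgeR). PROCR, the endothelial protein C receptor, fell by 1.04 on the log2 scale (SE 0.16, adjusted p = 2.43e-07, edgeR).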
